A study of Homo sapiens with 23 samples.

Results

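The 10 genes described here handle fatty acids at entry, inside the cytosol and in store: CD36, SLC27A6 and LPL for uptake, FABP3, FABP4, FABP5 and FABP7 for binding, PLIN2 for storage, and PNPLA2 and G0S2 for the release of stored fat. They were chosen by name, with results of these data already known, from a table of 35438 genes, and all 10 were in it. The choice drew on their levels in the clones, CD36 in clone 7 and G0S2 in clone 8 above all, so their values against untreated cells are a description, and those 2 values are given with no test. Of the 10, 9 passed a filter of at least 1 TPM (a transcript level corrected for length and scaled to a fixed total per library) in at least 2 libraries, and LPL did not. SLC27A6 and G0S2 passed through the 1 clone in which each was high, CD36 through the clones, and FABP4 through libraries of clones 7, 8 and 13.

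RNA was measured by poly(A) sequencing in WM989 A6-G3, a human melanoma cell line taken through single-cell bottlenecks, and in 7 drug-resistant clones of it. Untreated cells had never met drug and grew without it. Clones 7, 8 and 9 came from colonies that survived vemurafenib, which blocks mutant BRAF, and stayed in the drug at 1 µM. Clones 10, 11, 12 and 13 came from colonies under dabrafenib, which also blocks BRAF, combined with the MEK inhibitor trametinib, and stayed in both drugs at 250 nM and 2.5 nM. All groups carried the genotype label WT, with no gene named, and grew in the same low-serum medium. Each group had 3 libraries except clone 11, which had 2, replicates 2 and 3. The labels name them biological replicates but not how they were kept apart, so the error given is the spread between libraries, which may be technical. Each resistant line is 1 clone, resistance and the presence of drug cannot be told apart, and drug arm and drug cannot be told apart. All comparisons with untreated cells share the same 3 untreated libraries.

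Cells take up long-chain fatty acids through membrane proteins such as CD36 and the SLC27 family, and LPL frees fatty acids from circulating lipoproteins. Inside the cell, small binding proteins of the FABP family carry them through the cytosol, and surplus is esterified to triglyceride in lipid droplets coated by perilipins such as PLIN2. Stored triglyceride is opened by the lipase ATGL, the product of PNPLA2, which the small protein G0S2 inhibits. In melanoma, CD36 and lipid handling have been linked to drug-tolerant and undifferentiated states, and FABP7 is a known marker of cells of the melanocyte and glial lineage.

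The libraries had between 14415 and 24039 genes above 0 TPM, the fewest of them in replicate 1 of clone 10, and at least 18671 in any other library. No counts were used, so sequencing depth is unknown and no counting interval is given. All 7 melanocyte markers fell in each clone, from a summed 11967 to 12333 TPM in untreated libraries to between 22.1 and 467 TPM in the clones, and all 8 fibroblast markers rose in each clone, from a sum of 59.9 to 69.3 TPM to between 2180 and 8024 TPM. The defining pigment cell markers were thus present in untreated cells and low in the clones. In bulk RNA, fewer cells of a type and less RNA per cell cannot be told apart. Adipocyte markers were low in all groups, with a summed 2.78 to 13.4 TPM over 7 genes, RETN was at 0 in every library, and 0 of the 2 markers tested (LIPE and CFD) were called in the clone average, with 0 at an unadjusted p under 0.05 by limma.

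**Figure D1:**
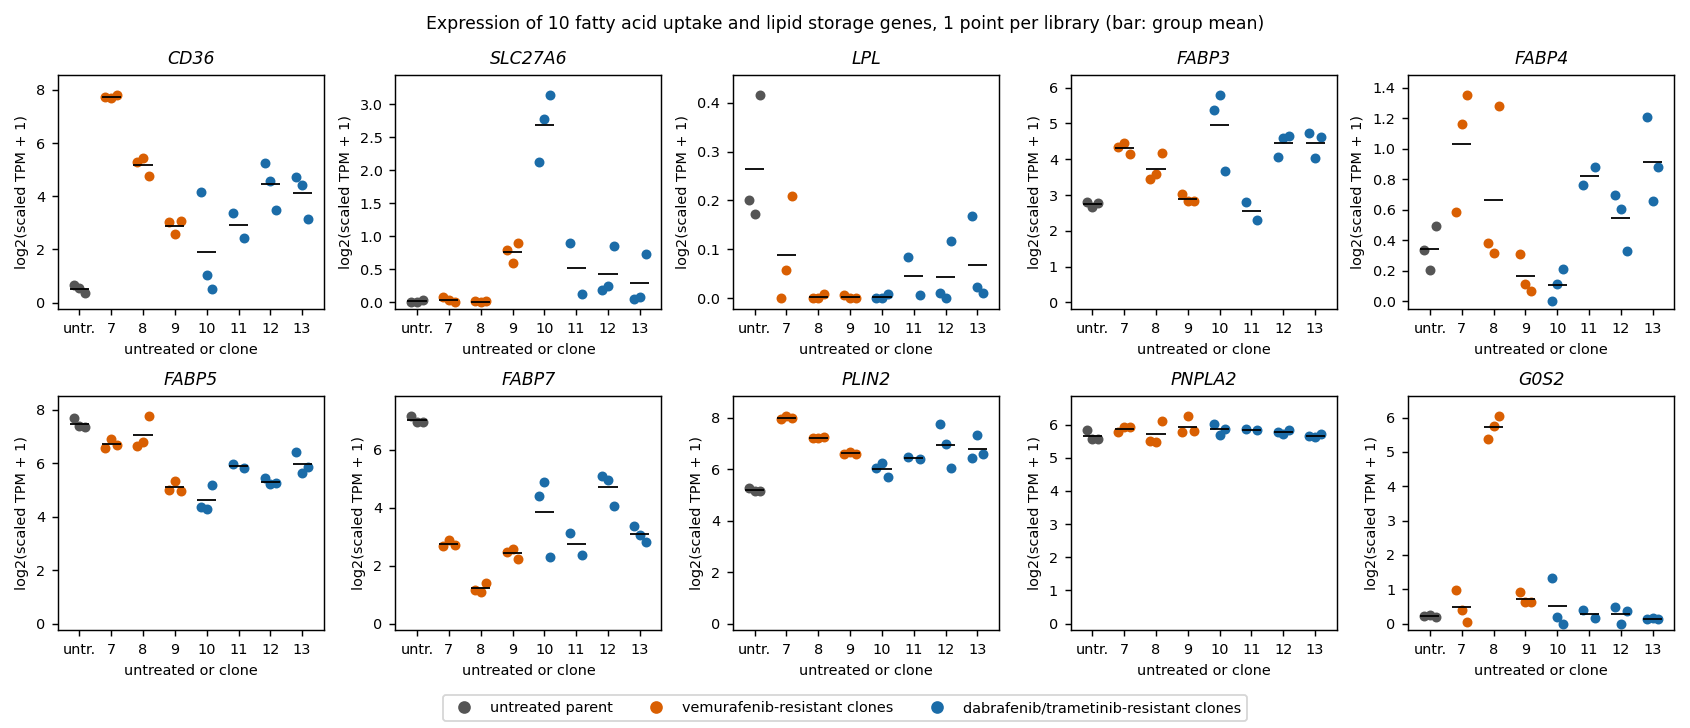
Level of each of the 10 genes in each library, as log2(scaled TPM + 1), with 1 panel per gene, 1 column per group and a bar at the group mean. Each panel has its own vertical scale. CD36 in clone 7, G0S2 in clone 8 and SLC27A6 in clone 10 stand above the other groups, FABP7 is highest in untreated libraries, and PNPLA2 is level.

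Calls were made with limma on log2(scaled TPM + 1), with a Benjamini-Hochberg adjusted p under 0.05 over 15657 genes and a log2 fold change of at least 1 in size. In clone 7, 3 of the 9 tested members were called higher and 1 lower, where 11.0% and 8.54% of all genes were called. In clone 8 the counts were 3 and 1, with 11.0% and 9.29% of all genes. In clone 9 they were 2 and 2, with 11.5% and 8.29% of all genes. In clone 10 they were 2 and 2, with 11.8% and 10.5% of all genes. The count in clone 11 was 2 higher and 2 lower, beside 11.7% and 9.53%. The count in clone 12 was 3 higher and 2 lower, beside 11.5% and 8.02%. The count in clone 13 was 3 higher and 2 lower, beside 12.3% and 8.35%. In the average of the 7 clones, 3 members (CD36, PLIN2 and FABP3) were called higher and 2 (FABP5 and FABP7) lower, beside 10.9% and 7.91% of all genes. The 9 tested members include CD36, SLC27A6, G0S2 and FABP4, which passed the filter only through clones in which they were high. Nothing is read from the counts, since the genes were picked from the same contrasts. The p values of members against untreated cells are likewise description and not independent evidence. The clones differed in which members moved: the 30 calls in single clones, 18 higher and 12 lower, fell on 7 genes, and FABP7 alone was called in all 7 clones. Without replicate 1 of clone 10, the library with the fewest detected genes, the log2 fold changes in clone 10 were 2.95 for SLC27A6, 1.99 for FABP3, -2.73 for FABP5, -3.42 for FABP7 and 0.79 for PLIN2, against 2.67, 2.19, -2.86, -3.16 and 0.81 with it. FABP3, FABP5 and FABP7 were called both ways and PLIN2 neither way. The values of SLC27A6 are description only, since it passed the filter through clone 10.

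**Figure D2:**
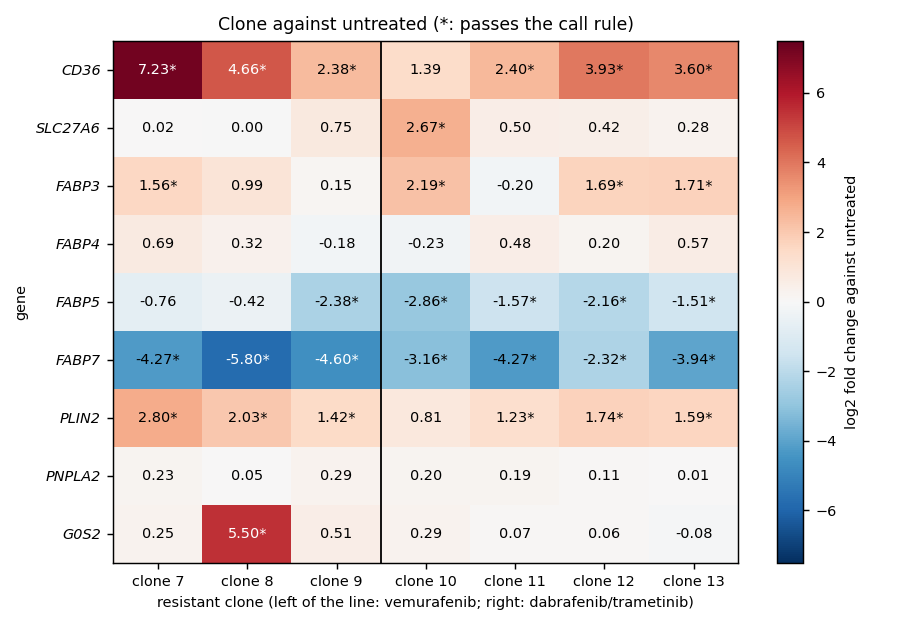
Log2 fold change of each tested member in each clone against untreated cells, on the log2(scaled TPM + 1) scale, with the value printed in each cell, a star where the call rule was passed, and a line between the vemurafenib and the dabrafenib and trametinib clones. The row of FABP7 runs from -5.80 to -2.32, and PLIN2 and CD36 are above 0 in every clone.

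Uptake differed most between clones at CD36, the scavenger receptor that takes up long-chain fatty acids and oxidized lipoproteins. In untreated replicates 1 to 3 it stood at 0.563, 0.445 and 0.277 TPM. In clone 7 it stood at 213, 205 and 221 TPM. Clone 8 was the next highest, with 37.8, 42.8 and 26.4 TPM. The libraries of clone 7 were thus above every other library, and those of clone 8 overlapped with clone 12. Clone 12 had 37.4, 22.9 and 10.2 TPM. Clone 13 had 25.7, 20.5 and 7.89 TPM. Both spread widely between their own libraries, and they overlapped with each other. Clone 9 had 7.10, 4.97 and 7.39 TPM, and clone 11 had 9.46 and 4.43 TPM in replicates 2 and 3. Clone 10 had 16.7 TPM in replicate 1, but 1.05 and 0.436 TPM in replicates 2 and 3. That last clone was the only one whose libraries overlapped with untreated cells. In the others, 31.1% to 37.3% of all genes had every library above every untreated library. In order of group means the levels ran from clone 7 (213 ± 8.18 TPM, SD, n = 3) through clone 8 (35.7 ± 8.40), clone 12 (23.5 ± 13.6), clone 13 (18.0 ± 9.17), clone 11 (6.95 ± 3.56, n = 2), clone 9 (6.49 ± 1.32) and clone 10 (6.07 ± 9.24) to untreated cells (0.428 ± 0.144). No neighbours in that order stood apart except clones 7 and 8.

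The log2 fold change of CD36 against untreated cells was 7.23 in clone 7 and 4.66 in clone 8. It was 3.93 in clone 12, 3.60 in clone 13, 2.40 in clone 11 and 2.38 in clone 9, with SEs of 0.65 to 0.73. These values are description only and are given with no p. CD36 was chosen on its levels in the clones and passed the filter through them. In clone 10 the log2 fold change was 1.39 (SE 0.65), and CD36 was not called there. That value rested on replicate 1, the library with the fewest detected genes: without it the fold change of CD36 in clone 10 was 0.27. Without replicate 2 or 3 it was 1.82 or 2.08. In clone 11 it was 1.93 without replicate 2, which leaves only replicate 3.

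Within clones 8, 10, 12 and 13, the libraries with more CD36 also had more melanocyte marker RNA, and within clones 7, 9 and 11 they did not. The summed melanocyte markers were 378, 118 and 73.8 TPM in replicates 1 to 3 of clone 10, 467, 314 and 58.9 TPM in clone 12, and 243, 109 and 79.9 TPM in clone 13, in each case in the same order as CD36. In clone 11 the order was opposite, with 22.1 and 36.3 TPM in replicates 2 and 3. In clone 7, the highest in CD36, the order was also opposite, with 376, 393 and 367 TPM in replicates 1 to 3. Clone 8 had 70.3, 70.8 and 56.9 TPM, in the same order as CD36. Clone 9 had 67.5, 59.6 and 60.0 TPM, in another order. In clones 10, 12 and 13 both CD36 and the markers fell from replicate 1 to replicate 3. Untreated libraries, with the highest sums of melanocyte markers, had the lowest mean CD36. The part of these markers in the spread of CD36 was not tested. Of the macrophage and monocyte markers, another source of CD36 RNA, 2 of the 4 tested rose in the clone average (10.9% of all genes). They were CD68, a lysosomal glycoprotein, at a log2 fold change of 1.03 (SE 0.15), and CSF1R, a growth factor receptor, at 1.45 (SE 0.20). PTPRC (0.08, SE 0.24) and CD163 (-0.37, SE 0.27) were not called in the average, and PTPRC was called higher in 1 clone. CD14, MARCO, C1QA and TYROBP were not tested, with no group mean above 0.328 TPM. The summed level of all 8 was 162 to 166 TPM in untreated libraries and 154 to 749 TPM in the clones, most of it CD68, with 610 TPM of CD68 in clone 7. CSF1R was at 8.55 TPM in clone 11, 6.05 in clone 8, 1.05 to 2.59 in the other clones and 0.398 TPM in untreated cells. Their part in the level of CD36 was not tested. Of the endothelial markers, another CD36-positive type, 0 of the 3 tested were called in the clone average. All 3 had an unadjusted p under 0.05 by limma, as did 60.6% of all genes. The sum over all 6 genes was 1.54 to 1.66 TPM in untreated libraries and 1.46 to 5.46 TPM in the clones. VWF changed by 0.95 on the log2 scale (SE 0.13) and was called higher in 3 clones. PECAM1 changed by 0.68 (SE 0.16) and was called higher in 1 clone. TIE1 changed by -0.53 (SE 0.11) and was called in 0 clones. The part of these markers in CD36 was not tested. PF4, the only erythroid or platelet marker tested, rose by a log2 fold change of 1.37, with a highest clone mean of 3.20 TPM.

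**Figure D3:**
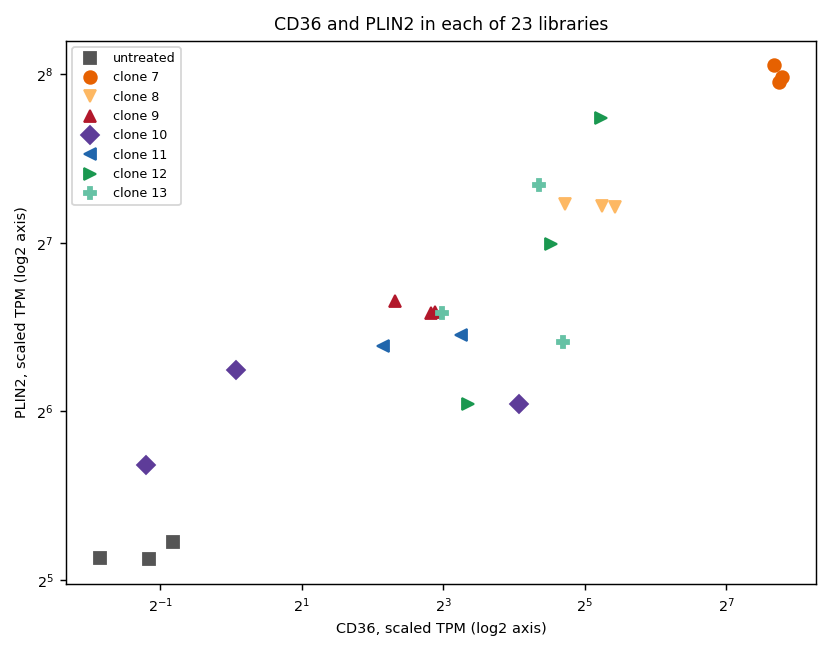
CD36 on the horizontal axis against PLIN2 on the vertical axis in each of the 23 libraries, both in scaled TPM on log2 axes, with 1 symbol and colour per group. Clone 7 lies at the upper right, apart from the other groups, untreated libraries lie at the lower left, and the libraries of clones 10, 12 and 13 are spread widely.

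SLC27A6, which encodes a fatty acid transport protein known chiefly from heart, was high in 1 clone only. Clone 10 had 3.38, 5.85 and 7.81 TPM in replicates 1 to 3. Untreated replicates had 0, 0 and 0.0217 TPM, and no library outside clone 10 passed 0.862 TPM. The fold change on the log2(scaled TPM + 1) scale was 2.67 in clone 10 (SE 0.24), and 2.95 without replicate 1. It is given with no p, since the gene passed the filter through this clone alone. The next highest was clone 9, with 0.729, 0.504 and 0.861 TPM and a change of 0.75 on that scale. With a pseudocount of 0.1 in place of 1, which gives more weight to differences near 0, the values of SLC27A6 were 2.88 in clone 9, 2.02 in clone 11 and 1.89 in clone 12. Clone 10 thus had the highest SLC27A6 and the lowest mean CD36 of the 7 clones.

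LPL, the lipase that frees fatty acids from lipoproteins, was near 0 everywhere. Untreated replicates had 0.150, 0.127 and 0.335 TPM. The highest value in any clone was 0.155 TPM, in clone 7, and 7 of 8 groups had at least 1 library at or under 0.00778 TPM. No fold change is given for it.

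The other genes of uptake and activation moved both ways in the average of the 7 clones. Of 20 genes of fatty acid transport and activation, 13 were tested. Of these, 1 was called up and 2 down, beside 10.9% and 7.91% of all genes. Their median log2 fold change was -0.04 against -0.01 over all genes. With values as deposited that median was 0.08, and ACSL4, an acyl-CoA synthetase, was called as well. CAV1, the coat protein of caveolae, rose from 33.0 ± 0.708 TPM in untreated cells to 281 to 761 TPM over the clones, a log2 change of 3.74 (SE 0.15). SLC27A3, an acyl-CoA synthetase of the transporter family, fell from 135 ± 13.1 TPM to 8.99 to 25.4 TPM (-3.15, SE 0.24). SLC27A1, the insulin-responsive fatty acid transporter of muscle and fat, fell from 33.1 ± 1.09 TPM to 10.03 to 15.3 TPM (-1.36, SE 0.13). Each of these 3 genes was called in all 7 clones, as were 4.87% of all genes in the higher direction and 4.18% in the lower. Of 17 partners of LPL, 10 were tested, and 2 were called higher and 0 lower, beside 10.9% and 7.91% of all genes. The median was 0.19, and 7 had an unadjusted p under 0.05 by limma, as did 60.6% of all genes. The 2 called higher were LRP1, the receptor that clears lipoprotein remnants, at 1.98 (SE 0.11), and SDC1, a heparan sulfate proteoglycan. SDC1 rose from 0.980 to between 25.8 and 88.2 TPM (4.81, SE 0.13).

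Binding protein RNA was dominated in untreated cells by FABP5 and FABP7, and the summed FABP3, FABP4, FABP5 and FABP7 level was lower in every clone. The sum was 313 ± 33.3 TPM in untreated cells. It was 155 ± 68.6 TPM in clone 8, 130.1 ± 14.8 in clone 7, 92.9 ± 24.5 in clone 13 and 86.5 ± 8.13 in clone 12. It was 77.5 ± 25.4 TPM in clone 10, 70.4 ± 8.94 in clone 11 and 44.3 ± 5.10 in clone 9. The highest clone library, 234 TPM in clone 8, was under the lowest untreated library, 292 TPM.

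FABP7, the brain-type binding protein found in glia, melanocyte precursors and melanoma, fell in all 7 clones. Untreated replicates had 141, 123 and 123 TPM. Clone 8 was the lowest, with 1.24, 1.15 and 1.64 TPM. Clone 12 was the highest of the clones, with 33.1, 29.9 and 15.7 TPM. No clone library reached the untreated range, which held for 32.2%, 30.5%, 32.9%, 29.1%, 36.7%, 33.1% and 32.3% of all genes in clones 7 to 13, and 28.6 TPM in clone 10 replicate 2 was the highest outside clone 12. Clone 10 spread most, with 20.1, 28.6 and 3.93 TPM. Clones 7 (5.34, 6.39 and 5.54), 9 (4.52, 4.90 and 3.72), 11 (7.75 and 4.17) and 13 (9.32, 7.27 and 6.08 TPM) lay between. The log2 fold change was -5.80 in clone 8, -4.60 in clone 9, -4.27 in clones 7 and 11, -3.94 in clone 13, -3.16 in clone 10 and -2.32 in clone 12, with SEs of 0.43 to 0.48. In the average of the 7 clones it was -4.05 (SE 0.33, adjusted p by limma 2.86e-09). That p describes a gene chosen with results of these data known and is not independent evidence. The melanocyte markers fell in the same clones, and the Schwann and glial markers did so for 4 of 5 genes in the clone average. Their part in the fall of FABP7 was not tested.

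The RefSeq window of FABP7 is shown because this gene was called in every clone. It covers the 250 bases before the annotated start, at chr6:122779466-122779715 on the + strand of GRCh38.p14, while the submitters' notes name hg19. Capitals mark matches to CCAAT, the box bound by NF-Y, on either strand.
FABP7: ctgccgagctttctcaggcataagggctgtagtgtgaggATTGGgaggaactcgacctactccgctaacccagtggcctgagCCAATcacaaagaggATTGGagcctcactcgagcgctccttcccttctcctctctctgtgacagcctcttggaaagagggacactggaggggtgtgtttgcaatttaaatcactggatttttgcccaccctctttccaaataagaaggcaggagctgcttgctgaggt
CCAAT was found 3 times, with matches beginning 211, 168 and 153 bases before the start. It was found in 32% of 35116 RefSeq windows of the same length. None of the other motifs searched on both strands was in the window: TATAAA, the TATA box (10.7% of windows), GGGCGG, the GC box (42.6%), TGANTCA, the AP-1 site (6.57%), CACGTG, an E-box that MITF can bind (6.34%), ACGTGC, a hypoxia response core (5.83%), or the direct repeat bound by PPAR and RXR, AGGTCA, any 1 base and AGGTCA again (0.0171%). CACGTG and ACGTGC can overlap. A match is a description of letters, not a bound site.

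FABP5, the epidermal-type binding protein that also carries retinoic acid to the nucleus, fell in 5 of the 7 clones. Untreated replicates had 204, 166 and 162 TPM. Clone 10 had 19.5, 18.6 and 35.0 TPM, and clone 9 had 30.7, 38.9 and 30.4 TPM. Clone 12 had 42.7, 36.6 and 36.9 TPM. These clones were the lowest 3. In every clone except clone 8 all libraries were under the untreated range, which held for 29.1% to 36.7% of all genes in those clones. Clone 11 had 62.3 and 55.2 TPM, and clone 13 had 83.4, 48.2 and 57.5 TPM. Clone 7 had 94.6, 118 and 99.9 TPM. Clone 8 had 97.5, 110 and 214 TPM, and its replicate 3 was above every untreated library. The library with 214 TPM had the smallest scaling factor (0.743, with 0.854 to 1.14 in the others), and as deposited it stood at 159 TPM, with 101 and 110 TPM in replicates 1 and 2. The log2 fold change was -2.86 in clone 10, -2.38 in clone 9, -2.16 in clone 12, -1.57 in clone 11 and -1.51 in clone 13, all called by limma (SE 0.26 to 0.29). It was -0.76 in clone 7 (adjusted p 0.0218, too small a fold for a call) and -0.42 in clone 8 (adjusted p 0.198).

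FABP5P7, a processed pseudogene of FABP5, held 33.3% to 51.0% of the RNA assigned to the pair in each library, so the level of FABP5 itself is uncertain, since reads can be divided between copies. The other 16 FABP pseudogenes in the table reached at most 0.530 TPM. Summed, FABP5 and FABP5P7 stood at 309 ± 12.0 TPM in untreated cells and between 47.4 ± 16.3 (clone 10) and 250 ± 84.2 TPM (clone 8) in the clones. In an alternative chosen after seeing the data, with FABP5 and FABP5P7 as 1 gene, the log2 fold change was -2.73 in clone 10, -2.50 in clone 9, -0.79 in clone 7 and -0.36 in clone 8, and the same 5 clones were called.

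FABP3, the heart-type binding protein, ran the other way and rose in 4 clones. Untreated replicates had 6.00, 5.36 and 5.86 TPM. Clone 10 had 40.5, 54.2 and 11.7 TPM. Clone 12 had 15.9, 23.1 and 24.3 TPM, and clone 13 had 25.5, 15.3 and 23.6 TPM. All libraries of every clone except clone 11 were above untreated cells, which held for 27.9% to 34.1% of all genes in those clones. Clone 7 had 19.2, 21.0 and 16.7 TPM. Clone 8 had 9.93, 10.9 and 17.2 TPM. Clone 9 (7.16, 6.11 and 6.14 TPM) lay just above untreated cells, and clone 11 (6.02 and 3.90 TPM) overlapped with them. The log2 fold change of FABP3 was 2.19 in clone 10, 1.71 in clone 13, 1.69 in clone 12 and 1.56 in clone 7 (SE 0.36), all called by limma. It was 0.99 in clone 8 (adjusted p 0.0322, too small a fold for a call), 0.15 in clone 9 and -0.20 in clone 11. The value in clone 8 passed the fold, and was called, without its replicate 1 (1.13) or 2 (1.07) and with a pseudocount of 0.1 (1.09).

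FABP4, the fat cell and macrophage binding protein, stayed low. Untreated libraries had 0.152 to 0.406 TPM, and the highest library of all had 1.55 TPM, in clone 7. No clone was called. The log2 fold change was 0.69 in clone 7 and 0.57 in clone 13, and with a pseudocount of 0.1 it was 1.62 and 1.43. These values are given with no p, since FABP4 passed the filter only through libraries of clones 7, 8 and 13.

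The make-up of the 4 binding proteins changed with their sum. In untreated cells FABP5 made up 56.7% ± 1.24 of the summed TPM, FABP7 41.4% ± 1.08, FABP3 1.84% ± 0.151 and FABP4 0.0882% ± 0.0456 (SD, n = 3). The share of FABP7 was 0.926% ± 0.219 in clone 8 and 29.8% ± 8.30 in clone 12, the lowest and highest of the clones. FABP3 made up 42.4% ± 16.8 in clone 10, where its libraries ran from 23.1% to 53.4%, and 6.97% ± 1.25 in clone 11 (n = 2). FABP5 made up 90.2% ± 0.976 in clone 8 and 37.2% ± 27.6 in clone 10. FABP4 stayed at or under 1.31% in every library. Shares of one sum move together, and FABP5P7 is not counted in it.

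**Figure D4:**
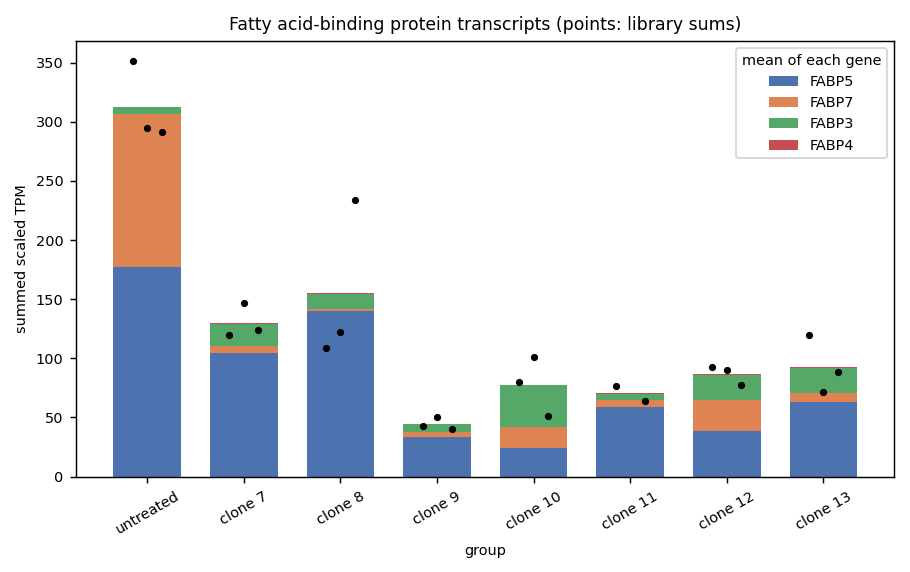
Mean summed TPM of FABP3, FABP4, FABP5 and FABP7 in each group, stacked by gene, with points for the sum in each library. Untreated cells reach 313 TPM, of which FABP7 makes up 41.4%, and clone 9 is lowest with 44.3 TPM.

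PLIN2, the perilipin that coats lipid droplets in most cell types and is lost when they empty, was above untreated cells in all 20 clone libraries. Untreated replicates had 37.4, 34.9 and 35.1 TPM. Clone 7 had 248, 266 and 253 TPM, and clone 8 had 149, 148 and 150.4 TPM. Both were tight, and clone 7 stood above every other library. Clone 9 had 95.7, 101 and 96.3 TPM, and clone 11 had 87.5 and 83.7 TPM. Clone 10 was the lowest of the clones, with 65.9, 75.8 and 51.3 TPM. Clone 12 had 214, 127 and 66.1 TPM, and clone 13 had 85.2, 162 and 95.8 TPM. Clone 12 overlapped with clones 8, 9, 10, 11 and 13, and every library of clone 13 was above clone 10. In clone 12 the libraries fell in the same order as CD36 and the melanocyte markers, and in clone 13 they did not.

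The log2 fold change of PLIN2 was 2.80 in clone 7, 2.03 in clone 8, 1.74 in clone 12, 1.59 in clone 13, 1.42 in clone 9 and 1.23 in clone 11 (SE 0.28 to 0.31), all called by limma. These SEs rest on 1 spread shared by the 8 groups, while the SD was 1.18 TPM in clone 8 and 74.4 TPM in clone 12. In clone 10 it was 0.81 (SE 0.28, adjusted p 0.0215), too small a fold for a call, and with values as deposited it was 1.11 and called. In the average of the 7 clones it was 1.66 (SE 0.21, adjusted p by limma 1.75e-06), a p that is likewise description and not independent evidence. Of all genes, 33.3%, 31.1%, 34.1%, 27.9%, 37.3%, 34.0% and 33.5% had every library of clones 7 to 13, in that order, above every untreated library.

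The RefSeq window of PLIN2, the 250 bases before its start at chr9:19127493-19127742 on the - strand of GRCh38.p14, is shown because its RNA was higher than in untreated cells in every clone library. Capitals mark matches to the same motifs.
PLIN2: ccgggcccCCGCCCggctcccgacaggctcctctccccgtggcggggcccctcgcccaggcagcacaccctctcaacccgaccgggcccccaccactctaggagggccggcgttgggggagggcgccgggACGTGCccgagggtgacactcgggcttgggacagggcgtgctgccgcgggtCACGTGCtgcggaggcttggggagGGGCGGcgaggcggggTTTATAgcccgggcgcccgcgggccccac
GGGCGG was found 2 times, once on each strand, with matches beginning 242 and 45 bases before the start. ACGTGC began 120 and 68 bases before it, the latter overlapping CACGTG at 69 bases. A TATA box on the opposite strand began 29 bases before the start. No match to the direct repeat, TGANTCA or CCAAT was in this window.

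Of the lipid droplet coat and assembly genes other than PLIN2, 18 were listed and 10 were tested. In the clone average 1 was called higher and 0 lower, beside 10.9% and 7.91% of all genes. The median log2 fold change was 0.20, and 6 had an unadjusted p under 0.05 by limma, as did 60.6% of all genes. The called gene was PLIN3, the perilipin of nascent droplets. PLIN3 rose from 17.1 ± 0.373 to 42.5 to 67.7 TPM (log2 fold change 1.58, SE 0.12) and was called in all 7 clones. With values as deposited BSCL2, which encodes seipin, was called higher too.

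PNPLA2, which encodes the lipase ATGL, was called in no clone. Its level was 55.8, 45.9 and 46.8 TPM in untreated replicates, and all 23 libraries lay between 43.2 and 74.9 TPM. The log2 fold changes lay between 0.01 (clone 13) and 0.29 (clone 9), with SEs of 0.15 to 0.17, and the F test among clones gave an adjusted p of 0.585. Those SEs leave room for small differences, so the clones are not shown to be equal. The ratio of PLIN2 to PNPLA2 TPM was 0.727 ± 0.0493 in untreated cells (SD, n = 3). It was 4.41 ± 0.176 in clone 7, 2.98 ± 0.687 in clone 8, 2.56 ± 1.41 in clone 12 and 2.31 ± 0.885 in clone 13. It was 1.63 ± 0.247 in clone 9, 1.52 ± 0.0300 in clone 11 (n = 2) and 1.14 ± 0.315 in clone 10. The lowest ratio of any clone library, 0.895 in clone 10, was above the highest untreated one, 0.761.

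G0S2, the inhibitor of ATGL, was high in clone 8 and near 0 elsewhere. Clone 8 had 40.3, 53.2 and 64.7 TPM (52.7 ± 12.2, SD, n = 3), and untreated replicates had 0.167, 0.190 and 0.140 TPM. No library outside clone 8 passed 1.52 TPM, the value of clone 10 replicate 1. In clone 8 the log2 fold change was 5.50 on the log2(scaled TPM + 1) scale, and no other clone was called by limma, with values from -0.08 (clone 13) to 0.51 (clone 9). PNPLA2 in the libraries of clone 8 was 43.2 to 68.6 TPM, within the range of 43.2 to 74.9 TPM over all libraries. Clone 8 also had the highest mean of CFD, the adipocyte marker adipsin, at 4.04 TPM against 1.13 TPM in untreated cells, called higher in that clone alone, and its sum of adipocyte markers reached 13.4 TPM in replicate 3. Their part in the level of G0S2 was not tested.

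The RefSeq window of G0S2, the 250 bases before its start at chr1:209675162-209675411 on the + strand of GRCh38.p14, is shown for comparison with PLIN2 and FABP7. None of the 7 motifs was found in it, so it has no capitals.
G0S2: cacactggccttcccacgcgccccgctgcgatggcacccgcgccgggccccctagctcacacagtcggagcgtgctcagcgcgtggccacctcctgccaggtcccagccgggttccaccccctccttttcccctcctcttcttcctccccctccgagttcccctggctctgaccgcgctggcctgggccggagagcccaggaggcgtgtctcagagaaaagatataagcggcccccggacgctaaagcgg
That says only that these letters are not in the window.

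Of the lipolysis genes other than PNPLA2 and G0S2, 13 were listed and 10 were tested. In the clone average 1 was called higher and 0 lower, beside 10.9% and 7.91% of all genes. The median log2 fold change was 0.38, and 8 had an unadjusted p under 0.05 by limma, as did 60.6% of all genes. MGLL, the lipase of monoglycerides, rose from 0.232 ± 0.0458 TPM to between 2.13 and 9.03 TPM (log2 fold change 2.33, SE 0.23) and was called in all 7 clones. ABHD5, the coactivator of ATGL, changed by 0.51 on the log2 scale (SE 0.10, adjusted p by limma 0.000338), too little for a call. It was named after its value was seen. With values as deposited LIPA and AQP3 were called higher too.

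Esterification genes moved both ways. Of 21 genes of triglyceride and cholesteryl ester synthesis, 16 were tested. Of these, 3 rose and 4 fell in the clone average (median 0.12), beside 10.9% and 7.91% of all genes. DGAT2, which makes triglyceride, rose from 0.370 ± 0.0521 to between 1.39 and 11.6 TPM (log2 fold change 1.92, SE 0.12). LCAT, which esterifies cholesterol in plasma, rose by 1.14 (SE 0.19). GPAT3, listed under its older symbol AGPAT9, fell from 3.53 ± 0.367 to between 0.0495 and 0.457 TPM (-1.95, SE 0.16). SOAT1, which esterifies cholesterol inside cells, fell from 92.4 ± 21.8 to between 19.3 and 39.0 TPM (-1.58, SE 0.28). Of the 4 lower calls, those of GK and AGPAT2 were lost with values as deposited.

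Of 31 fatty acid oxidation genes, 29 were tested, 3 (10.3%) were called higher and 0 lower, with a median log2 fold change of 0.06, beside 10.9% and 7.91% of all genes. In this list 21 genes (72.4%) had an unadjusted p under 0.05 by limma, as had 60.6% of all genes. CPT1C, the brain-type carnitine palmitoyltransferase, rose by 1.43 (SE 0.23), DECR1, a mitochondrial enzyme for unsaturated fatty acids, by 1.18 (SE 0.15), and CROT, a peroxisomal carnitine transferase, by 1.04 (SE 0.11). ACADVL was called higher too with values as deposited.

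Lipid-sensing transcription factors and coactivators had 16 of 19 genes tested, 6 called higher and 2 lower (median 0.50), beside 10.9% and 7.91% of all genes. RXRG, a retinoid X receptor that pairs with PPAR receptors, fell from 38.3 ± 0.917 TPM to at most 0.188 TPM in any clone mean (log2 fold change -5.17, SE 0.09). KLF15, a factor of fat cell and muscle metabolism, fell from 17.8 ± 1.13 to between 0.493 and 2.28 TPM (-3.10, SE 0.17). CEBPD, an early factor of fat cell differentiation, rose by 1.78 (SE 0.19) and SREBF1, a regulator of fatty acid synthesis, by 1.49 (SE 0.14). Both were uneven: CEBPD stood at 74.4 to 134 TPM in clones 9, 10, 12 and 13 and at 13.3 to 34.9 TPM in the others, with 14.6 TPM in untreated cells. CEBPD and SREBF1 were each called higher in 5 clones. PPARG, the receptor that drives fat cell genes and was named after its values were seen, was called higher in 4 clones. PPARG means were 5.61, 10.6, 6.63 and 7.06 TPM in clones 9, 10, 12 and 13 and 0.943 to 1.21 TPM in clones 7, 8 and 11. Untreated cells had 0.739 ± 0.0881 TPM of PPARG.

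Over these 7 lists, 104 of 139 genes were tested, and 17 (16.3%) were called higher and 8 (7.69%) lower in the clone average. Among all genes, 10.9% and 7.91% were called in the clone average. In all 7 clones 5 genes (4.81%) rose and 6 (5.77%) fell, beside 4.87% and 4.18% of all genes. The lists were drawn up with earlier results of these data known.

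**Figure D5:**
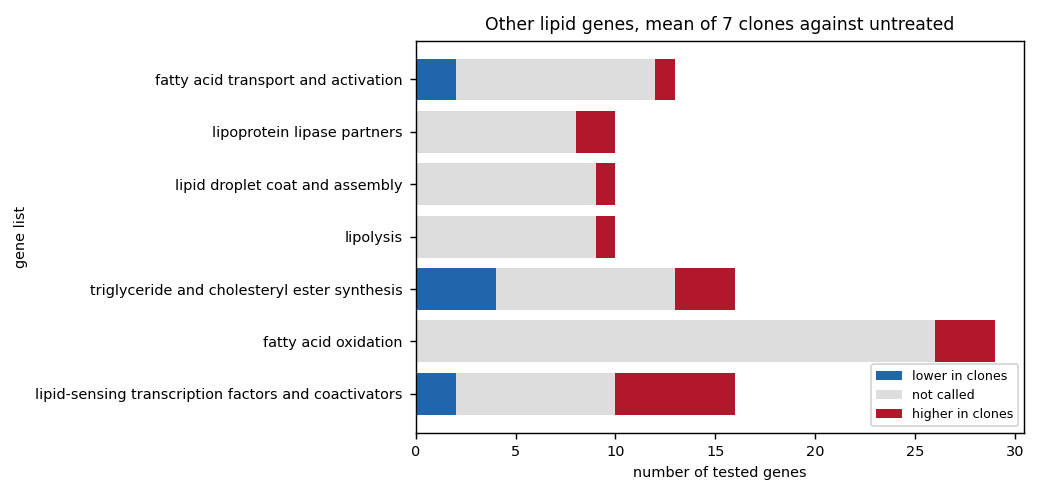
Number of tested genes in each of the 7 pathway lists (horizontal axis), with genes called lower in the clone average in blue, not called in grey and called higher in red. The transcription factor list has the most higher calls, 6 of 16, and the synthesis list the most lower calls, 4 of 16.

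The 7 clones were also compared with each other by an F test of equality that does not use untreated libraries, with a range of at least 1 between clone means. Over all genes 25.3% were called, and FABP3, FABP5, FABP7 and PLIN2 were among them. For CD36, G0S2 and SLC27A6, which were chosen for, or passed the filter through, their high clones, the ranges of 5.84, 5.58 and 2.67 are description only. FABP7 had a range of 3.48 on the log2 scale, FABP5 of 2.45, FABP3 of 2.39 and PLIN2 of 1.99. FABP4 had a range of 0.92 and was not called.

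The drug arms were compared with each clone as 1 unit, 3 against 4. None of the 9 tested members was called by limma, beside 0.0128% of all genes higher and 0% lower in the vemurafenib clones, and 1 member had an unadjusted p under 0.05. That was FABP7, lower in the vemurafenib clones by a log2 difference of -1.47 (SE 0.53, unadjusted p by limma 0.0244, adjusted p 0.289), where 2258 of all genes had an unadjusted p under 0.05. PLIN2 differed by 0.74 (SE 0.34, adjusted p 0.371) and FABP5 by 0.84 (SE 0.51, adjusted p 0.475), both higher in the vemurafenib clones. CD36 differed by 1.93 (SE 1.09), a value that includes clone 7. Clone 9, kept in vemurafenib, lay with clones 10 and 11 in CD36 and not with clones 7 and 8.

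For each member whose group means spanned at least 2 on the log2 scale, the genes with the most similar profile were found by the root mean square difference of centred log2 means over the 8 groups. The closest to CD36 were EREG, a growth factor of the EGF family (0.91), SPP1, the secreted protein osteopontin (0.97), and DNER (1.01). EREG stood at 0.506 TPM in untreated cells, 30.9 TPM in clone 7 and 10.4 TPM in clone 8. To PLIN2 the closest were CCDC85B (0.26), the kinase TNIK (0.27) and the pseudogene P2RX6P (0.28), and TNIK ran from 12.6 TPM in untreated cells to 83.9 TPM in clone 7. FABP7 was followed most closely by GYG2, a glycogenin (0.57), LONRF1 (0.59) and HPGD, which breaks down prostaglandins (0.61). Nearest to FABP3 were HMOX1, heme oxygenase (0.37), KIAA0930 (0.39) and TMEM138 (0.40). FABP5P7 was nearest to FABP5 (0.17), as a copy that can share its reads, before FAM81A and EXOSC5 (both 0.40). SLC27A6 was matched by ULBP3, a ligand of a natural killer cell receptor (0.22), KLK4, a secreted protease (0.25), and EIF1AXP1 (0.27), and the KLK4 level in clone 10 had an SD above its mean (20.0 ± 33.2 TPM, n = 3). G0S2 was matched by TPRG1 (0.73) and by the chemokine genes CCL3 (0.81) and CCL3L3 (0.90), which are near-identical copies and uncertain. The distances describe 8 group means only.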

How the data were processed

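Per the labels, 23 paired-end libraries of poly(A) RNA made up 8 groups. The deposited values, in a table named as counts, were read as TPM because every column summed to 1000000; per the submitters' processing notes the authors used kallisto and hg19. The annotation and the summing to genes were not given in the sources used here. Since TPM holds no depth, error is the spread between libraries.

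TPM was divided by factors of 0.743 to 1.14 from a trimmed mean of log ratios (30% of ratios and 5% of levels trimmed on each side, over 10822 genes). Scaling moved the all-gene median of the log2 change in the clone average to -0.01 from 0.14 as deposited. The 15657 genes reaching 1 TPM in 2 or more libraries were fitted in limma 3.58.1 (R 4.3.3) as log2(scaled TPM + 1), a scale that understates changes of low genes, with 8 groups and eBayes with a trend. Calls needed an adjusted p under 0.05 over all genes and a log2 fold change, or range between clones, of at least 1. Arms were compared on clone means. The fit was tested on simulated data. Alternatives were values as deposited, a pseudocount of 0.1, no filter, a replicate block, no trend, leaving out each library, and FABP5 summed with FABP5P7, the last chosen after seeing the data. Same-numbered libraries of different groups had a median correlation of deviations of 0.0143 over 77 pairs, against -0.00885 over 154 pairs with different numbers, so the numbers were not taken as pairs.

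The members and gene lists were chosen with earlier results of these data known. Named are the members, up to 4 called genes per list with the largest change in the clone average (where none was called, the 2 with the highest TPM), and the 3 genes closest to each member that spanned at least 2. RefSeq windows (GRCh38.p14) were matched by symbol, and 7 of 10 members had an entry.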

Additional observations from a re-analysis of the deposited data

Results flagged for a closer look

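SLC27A6 in clone 10 lay far from the other dabrafenib and trametinib clones. Its mean log2(scaled TPM + 1) was 2.68, the next clone mean was 0.51, in clone 11, and the gap was 0.905 of the range over the 4 clones, which is above Dixon's 95% critical value. All 3 libraries of clone 10, at 3.38, 5.85 and 7.81 TPM, were above those of the other clones. Chance alone passes this limit in about 1 in 20 groups, and each of the 10 genes was looked at once in this way; 1 passed. SLC27A6 was chosen with its level in clone 10 known, so this is a description and not independent evidence.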

How the results depend on the processing

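The 30 calls of members in single clones were kept with values as deposited (31 calls), a pseudocount of 0.1 (37), no filter (30) and no trend (30), and none turned direction. Of the 30, 6 were of CD36, 1 of G0S2 and 1 of SLC27A6, which are description only. Leaving out 1 library left 29 to 31, the loss being CD36 in clone 11, so that members called higher in clone 11 numbered 1 to 2. Replicate numbers were not taken as pairs, since 28 of 77 same-numbered pairs had a correlation over 0.1, where all would be needed; 12 of 23 libraries correlated best with their own number, where about 1 in 3 would without any pairing, a hint from the data and not the design. With the replicate block 31 calls stood, the added one being CD36 in clone 10 (1.39), which is description only. With the block no other call of a member changed. The call added with values as deposited was PLIN2 in clone 10. Those added with a pseudocount of 0.1 were of CD36, SLC27A6, FABP3 and FABP4. Leaving out 1 library added CD36 in clone 10 or FABP3 in clone 8. Genes called higher in the vemurafenib clones numbered 2, but 0 with values as deposited, a pseudocount of 0.1, no filter or no trend, and 0 to 5 with 1 library left out. The cause was not tested.

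Values near 0 turned sign. With values as deposited FABP3 in clone 11 was 0.0387, and the arm difference was -0.0418 for FABP4 and -0.102 for PNPLA2; with a pseudocount of 0.1 that of FABP4 was -0.0248. With 1 library left out the log2 values ran from -0.00665 to 0.00895 for SLC27A6 in clone 8, -0.457 to 0.0614 for FABP3 in clone 11, -0.156 to 0.163 for PNPLA2 in clone 8 and -0.0371 to 0.10 in clone 13. For G0S2 they ran from -0.119 to 0.544 in clone 10, -0.0453 to 0.179 in clone 11 and -0.0408 to 0.200 in clone 12. The arm difference ran from -0.0817 to 0.0965 for FABP4 and from -0.0106 to 0.0953 for PNPLA2.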
